A study of Drosophila melanogaster with 16 samples.

Results

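The 6 arrays described here are those of Ama-KTT/M/2 larvae raised on food with α-amanitin, which is 6 of the 16 samples of the series. They were chosen by their label alone, and what is described is how far the 6 pools of one stock on one food differed from each other. Each pool held the RNA of 10 whole larvae that were in the last instar and still feeding, and was measured on 1 Affymetrix Drosophila Genome 2.0 array. The Ama-KTT/M/2 stock of *Drosophila melanogaster* is isogenic for chromosomes 2 and 3 of Ama-KTT, an α-amanitin-resistant stock, and its X chromosome was not made isogenic in the crosses that the methods describe. The larvae ate toxic food from the first instar on, at 25°C. The labels give the dose as 1.5 mg/g, the methods as 1.5 μg/g, which is near the median lethal concentration for this stock. Tubes were started over 3 days, and larvae were picked at random across all tubes on the same morning. The sex of the larvae, and the tubes that a pool drew on, are not given in the sources used here. Replicate numbers are names, and the pools have no order.

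α-Amanitin binds RNA-polymerase II and blocks transcription. In the second part of the last larval instar, the fly larva prepares for the pupal stage under pulses of the steroid hormone ecdysone. The salivary gland then makes glue, a mix of secreted proteins of the *Sgs* genes with which the animal later fastens itself to a surface. The fat body, the larval organ of storage and metabolism, secretes larval serum proteins and later takes them up again. The epidermis lays down cuticle of chitin and of many small proteins, with different protein genes at work in different periods of an instar. Whole-larva RNA mixes all of these tissues, and a level measured in it cannot tell fewer cells of a type from less RNA per cell.

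Most transcripts hardly differed between the pools. The array holds 18952 probe sets, of which 183 are controls, and 9715 of the other 18769 had a mean of at least 64 over the 6 pools. The log2(intensity + 16) scale is used below for SDs, log2 differences and folds, with 2 exceptions. Folds against an intensity under 16 are reckoned on intensities, as given below, and an SD after ± is that of intensities. On the log2(intensity + 16) scale the median SD of these 9715 was 0.12 and the 90th percentile was 0.29. The highest and the lowest pool were less than 1.5-fold apart for 7930 probe sets (81.6%). They were at least 2-fold apart for 692 (7.12%), at least 4-fold for 165 and at least 8-fold for 76. The correlation between 2 arrays ran from r = 0.937 (replicates 2 and 4) to r = 0.993 (replicates 3 and 5), over probe sets, which are not independent. No pair of arrays held identical values. Each array's median intensity lay between 66.5 and 72.9, and 19.3 to 21.1% of probe sets were under 16 on each.

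The spread came from 3 pools. A probe set was counted for a pool when that pool lay at least 2-fold from the mean of the other 5 and outside all of them. Replicate 1 was higher at 188 probe sets (1.94%) and lower at 7 (0.0721%). Replicate 2 was higher at 28 (0.288%) and lower at 134 (1.38%). Replicate 4 was higher at 74 (0.762%) and lower at 111 (1.14%). In contrast, replicates 3, 5 and 6 reached 5 (0.0515%), 5 (0.0515%) and 6 (0.0618%) higher and 2 (0.0206%), 3 (0.0309%) and 14 (0.144%) lower probe sets. Replicates 2, 4 and 1 held 37.3, 23.4 and 20.6% of the summed squared deviation from the probe set means. The first principal component took 53.5% of the variance and set replicate 2 (score 35.7) against replicates 4 (-21.9) and 1 (-11.9). The second took 23.7% and set replicate 1 (23.8) against replicate 4 (-15.4). A pool enters the mean that the others are set against, so a count for replicate 1 or 4 also carries the distance of replicate 2. Without replicate 2, replicate 1 was higher at 177 probe sets, and replicate 4 was higher at 40 and lower at 99.

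**Figure D1:**
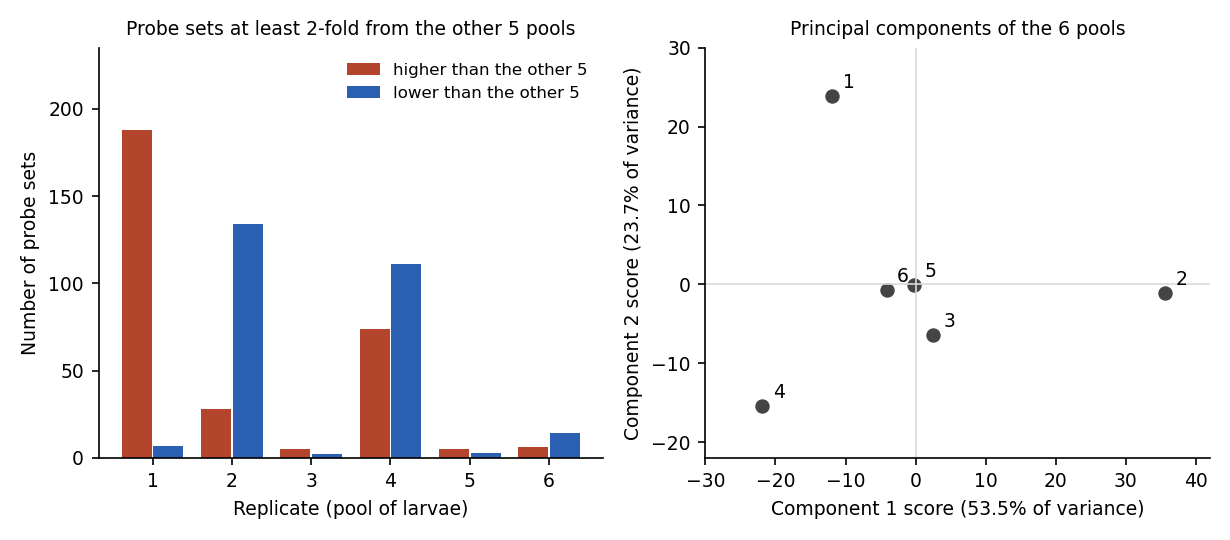
Left, the number of probe sets (y axis) at which each pool (x axis) lay at least 2-fold above (red) or below (blue) the mean of the other 5 pools and outside all of them, out of 9715. Right, scores of the 6 pools, numbered by replicate, on the first and second principal components of log2(intensity + 16). Replicates 1, 2 and 4 hold nearly all of the counted probe sets and lie far from the centre, while replicates 3, 5 and 6 lie near it.

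Replicate 2 nearly lacked the transcripts of the salivary glue. The *Sgs3* intensity was 11044, 0.0277, 9484, 12805, 10404 and 12348 in replicates 1 to 6, and that of *Sgs7* was 11144, 0.0399, 9647, 12755, 10623 and 11572 in the same order. Both were at the bottom of the scale in replicate 2 and bright in the other 5 pools, whose *Sgs3* mean was 11217 ± 1369 (SD, n = 5). An intensity under 16 was taken as no more than a bound, and a fold against it was reckoned as the mean of the other 5 pools over 16. By this measure *Sgs3* was at least 701-fold lower and *Sgs7* at least 697-fold lower in replicate 2 than in the other pools. *Sgs8*, which lies next to *Sgs7* on chromosome arm 3L, had intensities of 5297, 2.77, 3636, 7820.3, 4757 and 6195 in replicates 1 to 6. The neighbours *Sgs5* and *Sgs5bis* on arm 3R read 3.12 and 0.0117 in replicate 2, against 3891 to 9492 and 3451 to 7055 in the others. *Sgs1* read 0.758 against 1458 to 4090.1, and *Eig71Ee*, an ecdysone-induced gene whose product is also secreted with the glue, 3.69 against 1311 to 4724. In all of these genes replicate 2 lay apart, and the groups of values did not overlap. The glue list holds 12 genes, all of them past the filter. Of these, 8 were lower in replicate 2 by the 2-fold count and 10 had a range of at least 2-fold, against 1.38 and 7.12% of all probe sets. The median SD of the list was 3.15, against 0.12 for all probe sets.

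The new glue genes, *ng1* to *ng4*, are also active in the salivary gland and lie near *Sgs4* on the X chromosome. They did not share the low values of replicate 2. *ng1* read 1749, 4679, 2951, 1973, 2454 and 3470.3 in replicates 1 to 6, so that replicate 2 was the highest of the 6. *ng3* read 5045, 8846, 6046, 4874, 7174 and 7042 in replicates 1 to 6, again with replicate 2 on top, and *ng2* read 1640.3, 2801, 1867, 794, 1856 and 1795 in replicates 1 to 6, with replicate 2 highest and replicate 4 lowest. *ng4* was dim and nearly level, at 65.5 to 97.4. The factor *sage*, a bHLH transcription factor of the salivary gland, read 437, 96.5, 226, 711, 237 and 347 in replicates 1 to 6. Its level in replicate 2 was 3.33-fold below that of the other pools.

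**Figure D2:**
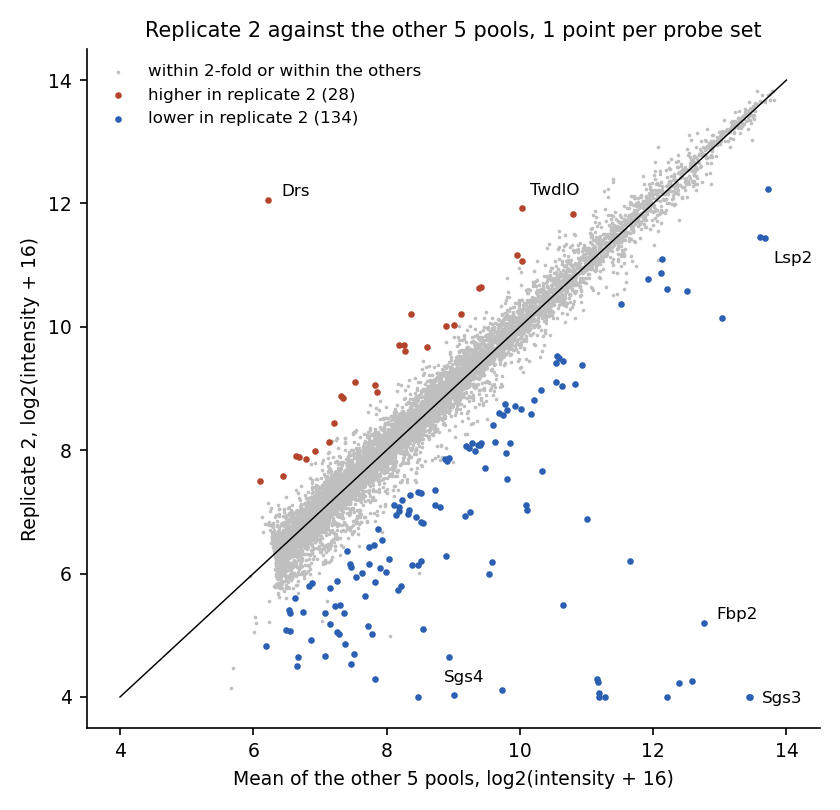
Each point is 1 of 9715 probe sets, with log2(intensity + 16) in replicate 2 (y axis) against the mean of the other 5 pools (x axis), and the line marks equal values. The 28 higher (red) and 134 lower (blue) probe sets are coloured, and most glue and fat body genes lie at the bottom right, with *Lsp2* at the upper right below the line and *Drs* at the upper left.

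The fat body genes moved in the same pool. *Fbp1* encodes the receptor through which the fat body takes up serum proteins, and read 368, 0.00253, 1814, 6474, 5665 and 2629.9 in replicates 1 to 6. Replicate 2 was at the bottom of the scale, at least 212-fold below the mean of the others, and replicate 1 was also far below replicates 3 to 6. *Fbp2*, another fat body protein gene, read 2364, 20.9, 8727, 10175, 8364 and 9272 in replicates 1 to 6, with the same order of the lowest pools. *Lsp2*, which encodes a larval serum protein, read 13778, 2774, 11485, 14926, 11930.4 and 14003 in replicates 1 to 6, so that replicate 2 was less far off, at 4.72-fold lower, and replicate 1 was not low. Of the fat body markers, the 3 *Lsp1* genes were not named on a probe set and were not used here. The 3 measured genes were all lowest in replicate 2 and all highest in replicate 4. *Obp99b*, of the odorant-binding protein family, read 12914, 2782, 11302, 13283, 11947 and 12783 in replicates 1 to 6 and followed *Lsp2* closely.

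Further genes of unlike function were low in replicate 2. *CG15404* and its neighbour *CG31698*, on arm 2L, read 0.00206 and 2.84 in replicate 2, against 1317 to 4680.4 and 1299 to 4013 elsewhere. *CG34279*, *CG12715* and *Tsp42Ep*, a tetraspanin gene, were at least 34.6-fold, at least 25.4-fold and at least 33.4-fold lower. *CG34227* read 3642, 58.1, 1827, 7001, 3944 and 1806 in replicates 1 to 6 and *CG33333* 2769.8, 103, 199, 7816, 2781 and 2825 in the same order, so that *CG33333* was low in replicate 3 as well. The cuticular protein gene *Cpr78E* read 1577, 28.8, 892, 3982, 1354 and 1344 in replicates 1 to 6. Among enzymes, *yellow-d2* read 758, 57.0, 646, 1345, 407 and 886 in replicates 1 to 6, *Pxd*, a peroxidase gene, 54.9 against 153 to 685, and the esterase gene *Est-P* 13.2 against 70.6 to 348. *croc*, a forkhead factor, read 16.5 against 106 to 187. The metabolic genes *Oat* (ornithine aminotransferase) and *FASN3* (fatty acid synthase) were 3.38-fold and 3.34-fold lower, with no overlap. In all of the genes named in this set replicate 4 was the highest pool.

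Genes of the ecdysone pathway differed less than the glue and fat body genes. Of 23 ecdysone response genes, 15 passed the filter and 3 had a range of at least 2-fold, against 7.12% of all probe sets. Their median SD was 0.16, against 0.12 for all probe sets. In 9 of the 15 replicate 2 was lowest and in 8 replicate 4 was highest. Over all probe sets, replicate 2 was lowest at 21.2% and replicate 4 highest at 26.8%. *br*, the Broad transcription factors of the early hormone response, read 581, 322, 741, 1075, 667 and 822 in replicates 1 to 6. The hormone receptor gene *EcR* read 382, 214, 316, 609, 347 and 370.4 in replicates 1 to 6. *MsrA*, the ecdysone-induced methionine sulfoxide reductase, read 659, 238, 612, 1060.0, 314 and 713 in replicates 1 to 6. Of 10 genes of ecdysteroid synthesis 7 passed the filter. *sro* (shroud) read 163, 45.9, 125, 293, 127 and 184 in replicates 1 to 6, and *sad* (shadow) read 139, 118, 129, 375, 145 and 122 in replicates 1 to 6. Both were highest in replicate 4, but only *sro* was low in replicate 2. *spok* (spookier) ranged from 171 in replicate 2 to 309 in replicate 4.

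Fewer genes were high in replicate 2. *Drs* encodes drosomycin, an antifungal peptide, and read 39.2, 4233, 50.5, 41.2, 105 and 76.9 in replicates 1 to 6. Its level in replicate 2 was 56.7-fold above the mean of the others on the scale with the offset, and the other 5 pools lay between 39.2 and 105. *Mtk*, metchnikowin, read 78.4, 222, 95.4, 80.0, 63.6 and 129 in replicates 1 to 6. Of 13 antimicrobial peptide genes 7 passed the filter. In replicate 2, 3 of them were highest and 2 lowest, against 30.6 and 21.2% of all probe sets. *Drs* and *Mtk* passed the 2-fold count, as did 0.288% of all probe sets. The mean of the filter takes in replicate 2, and the median of *Drs* over the 6 pools was 63.7. *Drs* could thus pass the filter through replicate 2, so its place in this count is partly built in. The 9 genes of the hemocyte list had no range of 2-fold, and the summed intensity of 4 hemocyte markers was 2230 to 2555. That of the 9 genes ran more widely, from 10149 in replicate 4 to 15417 in replicate 2. Other genes high in this pool were *prc* (pericardin, a collagen-like protein of the heart), which read 693, 1562, 892, 246, 777 and 986 in replicates 1 to 6, *Obp83cd*, which read 177, 532, 247, 44.0, 242 and 250.4 in replicates 1 to 6, and the glucuronosyltransferase gene *Ugt302E1*, 51.1, 165, 62.6, 28.7, 56.4 and 72.4 in the same order. *CG14275* read 238, 819, 319, 171, 276 and 437 in replicates 1 to 6, *CG8620* 160.2, 446, 173, 76.9, 166 and 184, and *Nepl11*, a neprilysin-like gene, 95.5, 225, 113, 17.3, 129 and 125. The mucin gene *Muc68Ca* read 1385, 2577, 1520.2, 769, 1761 and 1675 in replicates 1 to 6 and was followed by its other probe sets. In most of these genes replicate 4 was the lowest pool, so the 28 probe sets fell to 12 when replicate 4 was left out and to 9 without replicates 1 and 4. The 134 lower probe sets became 123 and 107.

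Replicate 1 stood out by a set of genes that were several-fold lower in every other pool. *CG14564* read 8862, 48.4, 66.1, 56.0, 51.3 and 69.8 in replicates 1 to 6, or 120.2-fold above the other pools. *CG14851* read 2058, 6.16, 3.82, 3.18, 4.93 and 6.34 in replicates 1 to 6, and *CG4229* read 5711, 86.3, 80.5, 29.6, 78.9 and 350.5 in replicates 1 to 6. *TwdlM* and *TwdlN*, which encode cuticle proteins of the Tweedle family and lie near each other on arm 3R, read 2727, 147, 147, 112, 138 and 155 in replicates 1 to 6 for the former and 3157, 71.7, 61.5, 10.4, 159 and 210.4 for the latter. The cuticle gene *Ccp84Ae* read 1075, 98.7, 102, 103, 110.3 and 109 in replicates 1 to 6. *CG14324* read 846, 31.0, 25.3, 19.3, 21.9 and 34.5 in replicates 1 to 6, and *CG13060* read 4689, 349.6, 437, 331, 409.9 and 641 in replicates 1 to 6. In all of these replicate 1 was alone at the top. Among the other 5 pools replicate 4 was lowest and replicate 6 highest in *CG4229*, *TwdlN* and *CG13060*.

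Replicate 6 was the next pool in most of these genes, and in further ones it stood clear of replicates 2, 3 and 4. *CG32237* read 8271, 48.4, 62.8, 43.3, 59.1 and 1993 in replicates 1 to 6, so that replicate 6 was high as well. *Cpr64Ad* read 1467, 15.9, 81.8, 10.0, 511 and 649 in replicates 1 to 6, with replicates 5 and 6 between the extremes. The neighbours *CG14569*, *CG14568* and *CG14565* on arm 3L, near *CG14564*, read 991, 31.1, 47.9, 3.78, 116 and 273, then 521, 1.70, 12.2, 1.20, 13.8 and 27.6, and then 339.8, 52.1, 49.1, 8.08, 60.7 and 108 in replicates 1 to 6. *CG13069* read 1936, 224, 262, 61.9, 513 and 705 in replicates 1 to 6, and *CG13041* 291, 23.5, 18.1, 22.3, 22.9 and 59.4.

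Replicate 1 was also highest in genes of the testis, by less. *betaTub85D*, the tubulin of the male germ line, read 529, 155, 145, 288, 262 and 199 in replicates 1 to 6. *Mst84Db* and *ocn*, both active in the testis, read 978, 247, 248, 499, 427 and 381 in replicates 1 to 6 for the former and 518, 124, 126, 250.4, 232 and 183 for the latter. The sperm leucyl-aminopeptidase genes *S-Lap8*, *S-Lap2* and *S-Lap7* were 2.66-fold, 2.62-fold and 2.53-fold above the mean of the other pools. *Mst77F*, *soti* and *tHMG1*, chosen after their values were seen, read 1170.0, 185 and 148 in replicate 1, against 292 to 640.1, 40.8 to 104 and 33.4 to 81.9. Of 39 genes on the testis list 20 passed the filter. Of these, 16 were highest in replicate 1 and 13 passed the 2-fold count there, against 11.4 and 1.94% of all probe sets. A range of at least 2-fold was found in 14 of them, against 7.12%. The mean of the filter takes in replicate 1, so a dim gene could pass through its level there. The list's mean log2 level was 8.11 in replicate 1, 7.59 in replicate 4, 7.39 in replicate 5, 7.27 in replicate 6, 6.92 in replicate 3 and 6.88 in replicate 2. The summed intensity of the 10 testis markers ran in the same order from 1381 to 512, and 4 of the 10 had a mean of at least 64. Early germ-line genes were dim, and *bam* read 55.3, 26.6, 39.5, 83.1, 62.3 and 42.4 in replicates 1 to 6. The paralogs of respiratory chain subunits *COX4L*, *COX5BL*, *ATPsynGL* and *ATPsynCF6L* were highest in replicate 1 too, *COX4L* at 139, 49.6, 33.9, 69.1, 70.6 and 63.0 in replicates 1 to 6. Whether the pools differed in their share of male larvae was not tested.

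Replicate 4 was low in another set of cuticle transcripts. *Lcp65Af*, a larval cuticle protein gene, read 2467, 1962, 1552, 109.9, 1139 and 1915 in replicates 1 to 6. A probe set shared by *Lcp65Ag1* and *Lcp65Ag2*, which cannot be told apart by it, read 3867, 1861, 1659, 332, 1701 and 2491 in replicates 1 to 6. *TwdlO* read 1114, 3892, 2252, 167, 1575 and 1672 in replicates 1 to 6, so that it was both highest in replicate 2 and lowest in replicate 4. *TwdlP* read 701, 1169, 649, 196, 851 and 588 in replicates 1 to 6, and *Twdlalpha* read 295, 276, 349, 36.5, 182 and 366 in replicates 1 to 6. *Cpr31A*, *Cpr49Ad* and *Cpr65Ec* were 3.95-fold, 3.72-fold and at least 6.04-fold lower in replicate 4. *CG43316* read 458, 478, 333, 12.5, 344 and 373 in replicates 1 to 6. Outside the cuticle, the glucuronosyltransferase gene *Ugt37C1* read 287, 395, 288, 62.2, 291 and 276 in replicates 1 to 6 and the *Cyp* gene *Cyp305a1* 213, 367, 262, 112, 271 and 258. In each of these genes the other 5 pools lay together above replicate 4.

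Of 107 cuticle genes 66 passed the filter, and 27 of these had a range of at least 2-fold, with a median SD of 0.28. In 37 of the 66 replicate 4 was lowest, and in 20 replicate 2 was lowest. Over all probe sets these pools were lowest at 29.1 and 21.2%. The highest pool was replicate 6 in 19 genes, replicate 2 in 18, replicate 1 in 11 and replicate 4 in 9, where these pools were highest at 16, 30.6, 11.4 and 26.8% of all probe sets. By the 2-fold count 13 genes were lower in replicate 4 and 3 higher, against 1.14 and 0.762% of all probe sets. In replicate 2, 7 were lower and 3 higher, against 1.38 and 0.288%, and 6 were higher in replicate 1, against 1.94%. Those low in replicate 2 included *Acp65Aa*, which read 99.9, 25.0, 113, 158, 80.4 and 164 in replicates 1 to 6, *Cpr65Aw* at 968, 169.7, 716, 1416, 464 and 1167 and *Cpr49Ac* at 1389, 511, 1117, 3115, 1207 and 1658 in the same order. The list thus held at least 3 patterns, with a different pool apart in each. In contrast, of 36 genes of chitin metabolism and mucins past the filter 4 had a 2-fold range, and of 14 tanning genes 2, nearer to the 7.12% of all probe sets.

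Replicate 4 was highest in 7 of the 12 glue genes and in all 3 fat body genes, against 26.8% of all probe sets. *Sgs3* was 12805 there and 12348 in replicate 6. *Fbp1* reached 6474 and *hll* 495, against 25.4 to 118 for *hll* elsewhere. *NimC2*, of the Nimrod family of phagocytosis proteins, read 193, 49.1, 239, 619, 402 and 61.2 in replicates 1 to 6. *LysX*, a lysozyme gene, read 69.4, 88.6, 86.4, 284, 226 and 241 in replicates 1 to 6, with replicates 4, 5 and 6 high and replicates 1, 2 and 3 low. The other measured lysozyme genes, *LysS* and *LysP*, were also highest in replicate 4, at 7121 and 685, and lowest in replicates 2 and 3, at 3399 and 398. *vri* and *cry*, genes of the circadian clock chosen after their values were seen, read 341, 106, 251, 602, 271 and 291 in replicates 1 to 6 for the former and 68.1, 42.7, 60.7, 138, 54.4 and 64.7 for the latter. The midgut protease gene *Jon44E* read 1085, 715, 868, 2034, 1247 and 1235 in replicates 1 to 6, and 14 of the 26 midgut proteases past the filter were highest in replicate 4, against 26.8% of all probe sets, and 12 were lowest in replicate 2. Of the 16 carbohydrase genes past the filter, 7 had a range of at least 2-fold and 8 were lowest in replicate 2, against 7.12 and 21.2% of all probe sets. The maltase gene *Mal-A5* read 1253, 435, 892, 1612, 1091 and 1099 in replicates 1 to 6, and the lysosomal mannosidase gene *LManIV* read 277, 99.7, 159.8, 266, 196 and 182 in replicates 1 to 6.

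**Figure D3:**
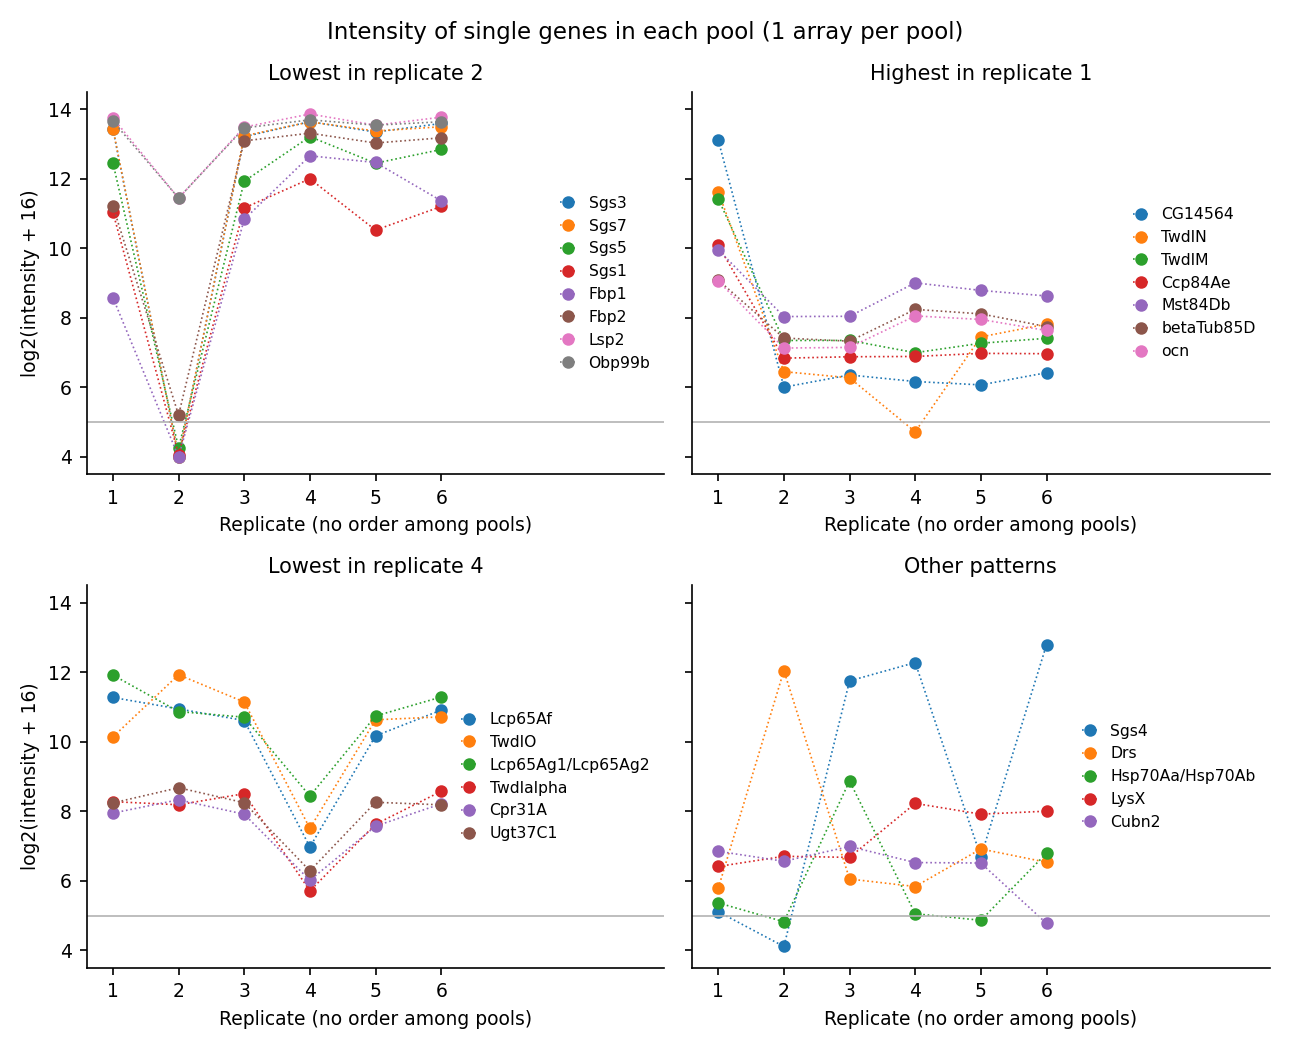
Intensity of single genes on the log2(intensity + 16) scale (y axis) in each of the 6 pools (x axis), 1 array per pool, with dotted lines only to join the points of a gene and the grey line at an intensity of 16. The panels hold genes lowest in replicate 2, highest in replicate 1, lowest in replicate 4, and with other patterns, and in the first panel replicate 2 lies near or under the grey line for 6 of the 8 genes.

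The largest SD of all, 3.92, was that of *Sgs4*, and it had a pattern of its own. It read 18.7, 1.32, 3441, 4967, 87.6 and 7096 in replicates 1 to 6. Thus replicates 3, 4 and 6 were high, and replicates 1, 2 and 5 were at most 87.6, although *Sgs3* and the other *Sgs* genes were high in replicates 1 and 5. *Sgs4* lies on the X chromosome, which was not made isogenic, while the other *Sgs* genes named here but *Sgs1* lie on chromosome 3. The genes *ng1*, *ng2* and *ng3*, near *Sgs4*, had another order and were highest in replicate 2. Whether the place of *Sgs4* bears on its pattern was not tested. Of 423 probe sets with an SD of at least 0.5, that of *Yp3*, a yolk protein gene, was most like *Sgs4* over the 6 pools (r = 0.966). *Yp3* read 72.2, 48.2, 154, 158, 59.4 and 149 in replicates 1 to 6, and the same 3 pools were high. Next came *CG11509* (r = 0.879) and *br* (r = 0.872 and 0.843 for its probe sets). The likeness is a description over 6 pools, and the genes were picked for it. For *Drs* the most alike were *Ugt302E1* (r = 0.898), *CG8620* (r = 0.869), *CG14275* (r = 0.868) and *Mtk* (r = 0.844), each of them highest in replicate 2.

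Single features set the remaining pools apart. In replicate 3 a probe set shared by *Hsp70Aa* and *Hsp70Ab*, the main heat-inducible chaperone genes, read 454, against 95.3 in replicate 6 and 12.4 to 25.3 in the others. The co-chaperone gene *DnaJ-1* was high in the same pools, at 692, 534, 1143, 463, 439 and 1021 in replicates 1 to 6. Another probe set, shared by *Hsp70Bbb*, *Hsp70Bc*, *Hsp70Bb* and *Hsp70Ba*, read 44.9, 40.8, 188, 49.5, 45.4 and 52.4 in replicates 1 to 6, high in replicate 3 alone. The small heat shock genes had other orders, as *Hsp26* read 818, 291, 675, 439.5, 507 and 465 in replicates 1 to 6, and *Hsp27* 1042, 406, 710.4, 1387, 909.7 and 867 in the same order. *Hsp68* lay between 71.6 and 144. Of 11 heat shock genes with a probe set of their own past the filter, 4 had a range of at least 2-fold, against 7.12% of all probe sets. None of the 11 passed the 2-fold count in replicate 3. Only 0.0515% of all probe sets were higher there and 0.0206% lower, so this says little. In replicate 6 *Cubn2* and *Amnionless*, related to the receptors by which nephrocytes take up protein, were low together. *Cubn2* read 99.6, 78.7, 111, 76.4, 75.5 and 11.5 in replicates 1 to 6, and *Amnionless* read 94.7, 71.2, 105, 79.1, 78.6 and 14.9 in replicates 1 to 6. Another, dimmer probe set of *Cubn2* had a mean of 28.0 and read 19.5 in replicate 6. In replicate 5 *CG14852* and *CG8087* were highest, at 115, 198, 266, 13.4, 514 and 245 in replicates 1 to 6 for the former and 47.1, 108, 52.5, 18.5, 257 and 71.1 for the latter. Both were also lowest in replicate 4, at 13.4 and 18.5, so this pair does not set replicate 5 alone apart. *CG14204* was low in replicate 1 alone, at 23.7, 456, 277, 174, 341 and 114 in replicates 1 to 6.

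To see which genes varied together, the 100 probe sets with the largest SD were grouped by average linkage on 1 - r over the 6 pools, at a height of 0.3. These 100 had an SD of at least 0.917, and the next one, just outside, had 0.916. Of the 100, 88 had 1 gene, 85 different genes in all, and 55 had only a CG number as a name. They fell into 9 groups, and the 3 largest held 45, 24 and 20. All 45 of the first were lowest in replicate 2 and 42 of them highest in replicate 4. It held *Sgs1*, *Sgs3*, *Sgs5*, *Sgs5bis*, *Sgs7*, *Sgs8*, *Fbp1*, *Fbp2*, *Lsp2* and *Eig71Ee*. All 24 of the second were highest in replicate 1, and in 20 of them replicate 6 came next and in 19 replicate 4 was lowest. It held *TwdlM*, *TwdlN*, *Ccp84Ae*, *Cpr64Ad* and *CG14564*. All 20 of the third were lowest in replicate 4, among them *Lcp65Af*, *TwdlO*, *Twdlalpha* and *Cpr65Ec*. A group of 5 held *hll* and *NimC2*, and a pair was that of *CG8087* and *CG14852*. *Sgs4*, *Drs*, *CG14204* and the probe set of *Hsp70Aa* and *Hsp70Ab* were each alone. The groups were made from these values and were not tested.

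Some genes of a group are neighbours on the chromosome. By the order of protein-coding genes in the Release 6 assembly, *Sgs8*, *Sgs7* and *Sgs3* lie within 4 genes on arm 3L, and *Sgs5bis*, *Sgs5* and *CG7606* are 3 genes in a row on arm 3R. *CG14569*, *CG14568*, *CG14565* and *CG14564* lie within 9 genes on arm 3L, and *TwdlM* and *TwdlN* within 8 on arm 3R. Of the 100 probe sets, 36 were on arm 3L, 23 on arm 3R, 12 on arm 2L, 9 on arm 2R and 8 on the X chromosome, and 12 had no single gene named. The share of each arm among all probe sets was not taken, so these counts cannot show an excess on any arm. When replicate 2 was left out, the groups of 24 and 20 each stayed in one piece, and 32 of the first 45 did. With rank correlation 38 of the 45, 21 of the 24 and only 9 of the 20 stayed together. Among the top 200 probe sets 44, 24 and 16 did.

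Of 12 pairs of genes, 11 were run across the 6 pools, and the pair of *Sgs3* with *Eip74EF*, a gene with no probe set of its own name, was not run. With exact two-sided permutation tests over pairings and Benjamini-Hochberg adjustment over the 11 pairs, *Sgs3* and *Sgs7* gave r = 1.00 (p = 0.00278, adjusted p = 0.0102) and rho = 1. Since 0.00278 is the smallest p that 6 pools can give, and since the pairs were chosen with these arrays known, the tests only describe the order of the pools. *Sgs3* and *Lsp2* gave r = 0.993 (exact p = 0.00278, adjusted p = 0.0102; rho = 1, the same p). *Lsp2* and *Obp99b* gave r = 0.998 (exact p = 0.00556, adjusted p = 0.0153) and rho = 0.943 (exact p = 0.0167, adjusted p = 0.0458). *mRpL12* of the mitochondrial ribosome and *Nop56* of ribosome biogenesis gave r = 0.966 (exact p = 0.00278, adjusted p = 0.0102) and rho = 1. *Lsp2* and *mRpL12* ran against each other, with r = -0.724 (exact p = 0.0222, adjusted p = 0.0489), but rho = -0.714 did not pass (exact p = 0.136, adjusted p = 0.150). The 2 pools farthest from the median were replicates 2 and 4 for every pair. Without these, r was 0.964 for *Sgs3* and *Sgs7*, 0.913 for *Sgs3* and *Lsp2*, 0.968 for *Lsp2* and *Obp99b*, 0.867 for *mRpL12* and *Nop56* and -0.492 for *Lsp2* and *mRpL12*.

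The other 6 pairs did not pass. *Sgs3* and *Sgs1* gave r = 0.990 (exact p = 0.0417, adjusted p = 0.0649; rho = 0.829, exact p = 0.0583, adjusted p = 0.128), which became 0.239 without replicates 2 and 4. *Lsp2* gave r = 0.883 with *Fbp1* (exact p = 0.158, adjusted p = 0.174; rho = 0.714, exact p = 0.136, adjusted p = 0.150) and r = 0.953 with *Fbp2* (exact p = 0.139, adjusted p = 0.170; rho = 0.771, exact p = 0.103, adjusted p = 0.150). Without replicates 2 and 4 these were -0.475 and -0.469, so both relations rest on those pools. *Sgs3* with *mRpL12* gave r = -0.663 (exact p = 0.0472, adjusted p = 0.0649), and *Lsp2* with *Nop56* gave r = -0.586 (exact p = 0.0306, adjusted p = 0.0560). For both, rho was -0.714 (exact p = 0.136, adjusted p = 0.150), and r without replicates 2 and 4 was -0.0933 and -0.0733. *Cyp6d2* and *Cyp28d1* gave r = 0.585 (exact p = 0.208, adjusted p = 0.208; rho = 0.543, exact p = 0.297, adjusted p = 0.297), and 0.518 without those pools.

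Detoxification genes had median SDs below those of the glue and cuticle lists and above the 0.12 of all probe sets. *Cyp* genes encode cytochrome P450s, *Gst* genes glutathione transferases and *Ugt* genes glucuronosyltransferases. Of 57 *Cyp* genes past the filter 6 had a range of at least 2-fold, of 30 *Gst* genes 2 and of 23 *Ugt* genes 3, not far from the 7.12% of all probe sets, with median SDs of 0.22, 0.13 and 0.19. Among the *Cyp* genes that the study names as induced by α-amanitin, *Cyp6d2* read 1154, 1892, 1274, 907, 1300.1 and 1287 in replicates 1 to 6 and *Cyp28d1* read 490.1, 875, 519, 631, 520.5 and 656 in replicates 1 to 6, both highest in replicate 2. *Cyp4d2* read 617, 248, 482, 934, 464 and 547 in replicates 1 to 6, and *Cyp6t1* 201, 83.4, 143, 245, 162 and 141 in the same order, both lowest in replicate 2 and highest in replicate 4. *Cyp4d14* ranged from 699 in replicate 2 to 1408 in replicate 1, *Cyp4d8* from 404 to 661, and *Cyp316a1* from 83.4 to 123. Outside these, *Cyp6g1* read 1008, 510.4, 785, 1198, 881 and 477 in replicates 1 to 6, low in replicates 2 and 6. Of the *Gst* genes, *GstD6* read 621, 1110.4, 778, 504, 873 and 721 in replicates 1 to 6, while *GstD3* and *GstD10* had SDs of 0.12 and 0.06. *GstE7* read 1339.6, 764, 1066, 1766, 1066 and 1276 in replicates 1 to 6.

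Some large sets of genes shifted a little, but in nearly every member. All 69 genes of the mitochondrial ribosome were highest in replicate 2 and 67 were lowest in replicate 4, and none had a range of 2-fold. Their mean log2 level was 9.67 in replicate 2, 8.99 in replicate 4 and 9.22 to 9.45 in the others. *mRpL12* read 1132, 1711, 1317, 892, 1425 and 1351 in replicates 1 to 6. Of 37 genes of ribosome biogenesis, 31 were highest in replicate 2 and 30 lowest in replicate 4, with *Nop56* at 1276, 1519, 1302, 995, 1414 and 1389 in replicates 1 to 6. Of 62 genes of the respiratory chain past the filter, 47 were highest in replicate 2, and 51 were lowest in replicate 4, which became 24 with each array centred on its median, when 30 were lowest in replicate 1. Centring moved the arrays by up to 0.11 (log2) against each other, and the mitochondrial ribosome then kept 69 genes highest in replicate 2 and 64 lowest in replicate 4. Over all probe sets, 30.6% were highest in replicate 2 and 29.1% lowest in replicate 4. Of 27 proteasome genes, 23 were highest in replicate 4 (26.8% over all probe sets), 14 were lowest in replicate 3 and 9 in replicate 2. Over all 9715 probe sets, 2137 were lowest in replicate 3 and 21.2% in replicate 2. With median centring 25 were highest in replicate 4 and 20 were lowest in replicate 1. Centring lowered replicate 1 by 0.066 (log2), the most of all arrays, and shares over all probe sets were not taken after it. The counts of respiratory chain and proteasome genes lowest in replicate 1 are thus not read as a result about these genes. *Prosalpha7* read at 1789.6, 1666, 1712, 2017, 1820.4 and 1829 in replicates 1 to 6.

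Lists of other tissues were small, so that a count of 0 is near the 7.12% of all probe sets. None of 18 muscle, 12 replication or 9 hemocyte genes past the filter had a range of at least 2-fold, nor had any of 5 neuronal and 7 Malpighian tubule genes. The phagocytosis gene *NimC2*, which is not on the hemocyte list, had a log2 range of 3.29. The summed intensity of 3 muscle markers was 11134 to 12251, that of 4 midgut markers 22592 to 27481 and that of 4 neuronal markers 383 to 445. The sum of 2 Malpighian tubule markers ran more widely, from 2092 in replicate 4 to 3332 in replicate 2, as did that of the testis markers given above. In contrast, the summed intensity of 10 salivary gland markers was 16418 in replicate 2 and 43323 to 59636 in the others, and that of 3 fat body markers 2795 in replicate 2 and 16510 to 31575 in the others. The level of *RpLP0*, a ribosomal protein gene, was 10120.4, 10590.4, 10399.5, 9809, 10683 and 10573 in replicates 1 to 6. A range of at least 2-fold was found in 2 of 38 genes of the cytosolic ribosome, 1 of 5 of juvenile hormone metabolism, 2 of 9 lipase and 2 of 15 odorant-binding protein genes past the filter, against 7.12% of all probe sets.

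**Figure D4:**
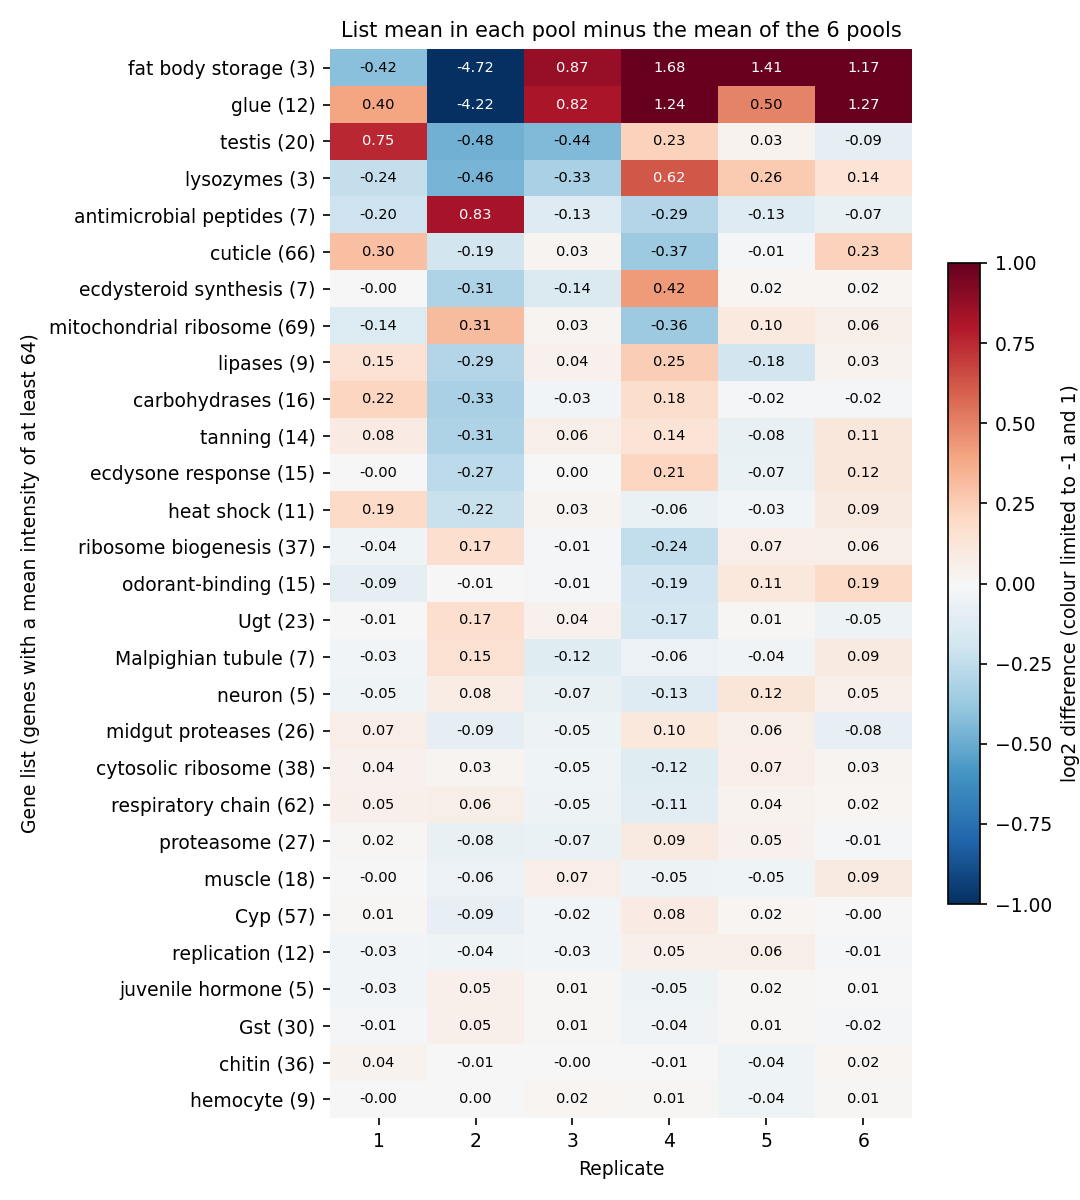
Mean log2(intensity + 16) of each gene list with at least 3 genes past the filter (rows, number of these genes in brackets) in each pool (columns), minus its mean over the 6 pools, with colours limited to -1 and 1. Fat body storage and glue genes are lowest in replicate 2, testis genes highest in replicate 1, and the chitin and hemocyte rows stay close to 0.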

How the data were processed

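Whole-larva RNA of 6 pools of Ama-KTT/M/2 on α-amanitin was measured, with 1 array per pool. The authors read the array images with Affymetrix Expression Console 1.2, per the processing notes. They made the deposited intensities, which are on a linear scale, in Affymetrix Power Tools by PLIER with quantile normalization between arrays and mismatch adjustment. Quantile normalization gives all arrays like distributions, so a shift of the whole RNA pool is not seen. The values were not normalized again. Gene names were taken from the platform annotation and brought up to date with the RefSeq gene table of Release 6. A single gene was named for 13647 of 18769 probe sets, several genes for 402 and no gene here for 4720. For a gene with several probe sets the brightest was used. No column of another sample was used, and no sequence or base position was used here. Chromosome arms and the order of genes are those of that RefSeq table.

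Spreads, counts and groups were computed on log2(intensity + 16) with Python 3.11.15, numpy 2.4.6, pandas 2.3.3 and SciPy 1.17.1. The steps were tested on simulated data. Probe sets entered with a mean of at least 64, and intensities under 16 were taken as a bound. That mean takes in all 6 pools, so a probe set bright in 1 pool could enter through that pool. One group has nothing to be set against, so only the gene pairs had a test. The members, the 30 gene lists and the pairs were chosen with earlier results of these data known. The rule for named genes took the 25 genes with the largest SD, the 12 highest and 12 lowest in replicate 2, up to 4 genes of each list, the study's inducible *Cyp* and *Gst* genes and the genes of the pairs. Other genes named, such as further members of the 3 large groups, the *ng*, *S-Lap* and *Hsp70* genes and *bam*, *sage*, *croc*, *Cubn2* and *Amnionless*, were chosen after their values were seen. Counts, spreads, list differences and pairs were also taken, each under those that apply, with an offset of 1 or 64, a filter on the mean 4 times as high or none, the mean of a gene's probe sets, median centring, a second quantile normalization, the median of the other pools, a limit of 1.5-fold, rank correlation, the median absolute deviation, the top 200 probe sets and leaving out pools. Counts for replicates 3, 5 and 6 and those lower in replicate 1 were not taken again, and the lists' highest and lowest pools only under the 2 scalings. Precision is limited by the number of arrays and, for dim transcripts, by their signal over background.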

Additional observations from a re-analysis of the deposited data

Results flagged for a closer look

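For each named gene and each list, the gap between the most extreme pool and its nearest neighbour was divided by the range of the 6 pools on the log2(intensity + 16) scale. A value above 0.625, Dixon's critical value at the 95% level, singles out 1 pool. Chance alone does so in about 1 of 20 groups, and the genes were named for their spread, so a high share is built in. Of 148 genes tested, 41 passed, 8 at replicate 1, 20 at replicate 2, 1 at replicate 3, 10 at replicate 4 and 2 at replicate 6. Over all 9715 probe sets 608 (6.26%) passed, of which 245 at replicate 4, 133 at replicate 2, 92 at replicate 6, 79 at replicate 1, 40 at replicate 3 and 19 at replicate 5. Thus replicate 4 was singled out most often over the whole array, although the largest differences were those of replicate 2.

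At replicate 2 the values of the glue genes were 0.958 for *Sgs7*, 0.955 for *Sgs3*, 0.883 for *Sgs5bis*, 0.873 for *Sgs8*, 0.857 for *Sgs5*, 0.814 for *Sgs1* and 0.768 for *Eig71Ee*. Those of *Obp99b*, *Lsp2* and *Fbp2* were 0.897, 0.844 and 0.741, whereas *Fbp1* and *Sgs4* did not pass. The gap of *Drs*, on the high side, was 0.819 of its range, but *Drs* could pass the filter through that pool. For *CG31698*, *CG15404*, *CG34227* and *CG34279* the values were 0.791, 0.778, 0.704 and 0.690, for *croc* 0.724, for *Cpr78E* 0.670, for *Tsp42Ep* 0.667, for *FASN3* 0.645 and for *Oat* 0.626. Of 30 lists 4 passed, all at replicate 2. These were glue genes with 0.841, antimicrobial peptide genes with 0.804, where *Drs* is 1 of 7 genes, *Eig71E* genes with 0.768, where *Eig71Ee* is the one gene past the filter, and fat body storage genes with 0.672. The antimicrobial peptide value is thus partly built in, since *Drs* could enter that list's mean through replicate 2.

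At replicate 1, on the high side, the values were 0.967 for *CG14851*, 0.957 for *Ccp84Ae*, 0.942 for *CG14564*, 0.906 for *TwdlM*, 0.888 for *CG14324*, 0.755 for *CG13060*, 0.729 for *CG14568* and 0.638 for *CG13041*. At replicate 4, on the low side, they were 0.878 for *CG43316*, 0.794 for *Ugt37C1*, 0.743 for *Lcp65Af*, 0.717 for *Cpr65Ec*, 0.673 for *Cpr31A*, 0.669 for *Twdlalpha*, 0.654 for *Cpr49Ad* and 0.652 for the probe set of *Lcp65Ag1* and *Lcp65Ag2*. On the high side *sad* had 0.834 and *cry* 0.628. At replicate 3, on the high side, the probe set of *Hsp70Bbb*, *Hsp70Bc*, *Hsp70Bb* and *Hsp70Ba* had 0.855. Its median over the 6 pools was 47.5, so it could likewise pass the filter through replicate 3. At replicate 6 *Cubn2* and *Amnionless* had 0.784 and 0.760.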

How the results depend on the processing

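No paired analysis was possible because the values come from 1 group of pools. The 28 probe sets higher in replicate 2 became 16 with an offset of 64, 17 with a 4 times higher minimum for the mean, 15 against the median of the other pools, 9 without replicates 1 and 4, 155 at 1.5-fold, and 12 (without replicate 4) to 39 when each pool was left out. The 134 lower ones became 316 at 1.5-fold and 123 to 164. For replicate 1 the 188 higher ones became 90 with an offset of 64, 44 with that minimum, 296 at 1.5-fold and 174 to 205. For replicate 4 the 74 higher ones became 49 with that minimum, 47 against the median, 207 at 1.5-fold and 40 (without replicate 2) to 98. The 111 lower ones became 67 with it, 269 at 1.5-fold and 99 to 113. The counts for replicates 1 and 4 against the median or at 1.5-fold, and those without replicates 1 and 4, were added after seeing the data. The 692 probe sets with a 2-fold range became 304 with that minimum and 488 to 684 without a pool. The list of 100 shared 47 with a ranking by the median absolute deviation and 64 (without replicate 2) to 98 with leave-one-out rankings. The first group of 45 held 78 among the top 200 probe sets, and 32 stayed together without replicate 2. With rank correlation the third group kept 9 of its 20 together.

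Replicate 2 minus the mean of the others was -5.07 for the glue list, -7.10 and -3.84 with offsets of 1 and 64, and -5.18 to -4.96 when a pool was left out. For the fat body list it was -5.66, then -7.24, -4.61 and -6.00 to -5.48. Leaving out a pool gave 0.30 to 0.42 for the mitochondrial ribosome, 0.15 to 0.23 for ribosome biogenesis, -0.71 to -0.41 for the testis and -0.32 to -0.16 for the cuticle list. Of 1480 ranges of named genes under all alternatives, 159 moved by more than the SD between pools. Of 240 differences of the lists not named in this paragraph 9 did. The glue and fat body differences also moved by more than that SD with an offset of 1 or 64. Without replicate 2, r was 0.967 for *Sgs3* and *Sgs7*, 0.947 for *Sgs3* and *Lsp2*, 0.977 for *Lsp2* and *Obp99b*, 0.969 for *mRpL12* and *Nop56* and -0.735 for *Lsp2* and *mRpL12*. All 5 lost their call. The adjusted exact permutation p was 0.0611 for the pairs of *Sgs3* and that of *mRpL12* and *Nop56*, which had the smallest p that 5 pools can give (0.0167), 0.0917 for *Lsp2* and *Obp99b* and 0.293 for *Lsp2* and *mRpL12*. The sign of r turned for *Lsp2* with *Fbp2* (-0.120) and *Cyp6d2* with *Cyp28d1* (-0.351), and *Lsp2* with *Fbp1* fell to almost none (-0.000795). For these pairs rho stayed positive, at 0.6, 0.2 and 0.5 in the same order. The other pairs gave an r of 0.635 for *Sgs3* and *Sgs1*, -0.593 for *Sgs3* and *mRpL12* and -0.617 for *Lsp2* and *Nop56*. The cause of these changes was not tested. Signal over background limits dim genes, since 19.3 to 21.1% of probe sets were under 16 on an array.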
